A study of Mus musculus with 2 samples.

Results

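Cytosolic ribosomal protein genes were taken as the protein-coding rows whose symbol names a protein of the large (Rpl) or small (Rps) ribosomal subunit, with Rplp0, Rplp1, Rplp2 and Rpsa included and the Rps6 kinase genes left out. This rule gave 83 of the 54532 genes in the data, of which 51 belong to the large subunit and 32 to the small subunit. The samples were macrophages from the aorta of ApoE-/- mice on the C57BL/6J strain, sorted on F4/80 and CD11b, and the cells of 5 mice were pooled into 1 library per group. The PDR (Phlegm-Dampness Retention syndrome) mice received high-fat chow during 4 weeks. The SKYD (Spleen and Kidney Yang Deficiency syndrome) mice were given propylthiouracil, which blocks the making of thyroid hormone, for 4 weeks at a daily dose of 10 mg/kg, followed by 2 weeks of high-fat chow. The labels give an age of 6 weeks for both groups. The paper gives this age in describing the animals and does not state the age at sampling, and the protocols differed in length. Every mouse lacks ApoE, and no mouse with intact ApoE was sequenced in these libraries. Syndrome, drug, diet time, length of the protocol and any difference in age at sampling cannot be told apart. With 1 library per group no difference has a replicate check or a p-value.

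A ribosome is built from ribosomal RNA and a nearly fixed set of proteins, mostly 1 copy of each per particle. The large subunit joins amino acids and carries the tunnel through which the new chain leaves, and the small subunit reads the messenger RNA. Most ribosomal protein mRNAs begin with a run of C and T bases at their 5′ end, the TOP motif, through which the mTOR pathway controls their translation. Some ribosomal proteins also act away from the ribosome, such as Rpl5, Rpl11 and Rpl23, which bind Mdm2 and thereby stabilise p53.

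Levels are FPKM, fragments per kilobase of gene length scaled to a size for each library, as the authors deposited them. These sizes differ from the sums of reads on genes, at 1.017 times the sum in PDR and 0.983 times in SKYD. Whole reads were recovered from the FPKM and gene lengths, and the sums over all genes were 23086889 reads for PDR and 25427863 for SKYD. A difference is log2(FPKM + 1) in PDR minus log2(FPKM + 1) in SKYD, for the 10399 genes whose FPKM averaged 1 or more over both libraries (the tested genes). A fold is the ratio of FPKM in PDR to FPKM in SKYD, with an exact 95% interval from how the reads of a gene split between the libraries. These intervals cover counting error only and leave out the spread between mice. The F4/80 gene Adgre1 had 6639 reads in PDR and 7551 in SKYD. All 12 macrophage markers examined were among the tested genes, and together they took 3.37% of reads in PDR and 6.28% in SKYD. Most of these reads were on Lyz2 (686737 in PDR and 1359594 in SKYD). Of the 12 markers 10 were higher in SKYD, while Csf1r and Fcgr1 were higher in PDR, with folds of 1.28 and 1.47. Markers of other cells also differed, since the 8 B cell markers took 0.379% and 0.0714% of reads, the 8 T cell markers 0.0473% and 0.291%, the 4 immature T cell markers 0.000169% and 0.0563% and the 6 hepatocyte markers 0.207% and 0.0632%. The 8 erythroid markers took 1.71% and 2.21%, the 7 neutrophil markers 0.327% and 0.247%, the 5 platelet markers 0.0198% and 0.105% and the 4 fibroblast markers 0.00610% and 0.0241%. The platelet share came mostly from Pf4 (3690 and 26049 reads), and the other platelet markers, Ppbp, Gp9, Itga2b and Gp1ba, had the higher FPKM in PDR. Single genes also went against their list's share among the erythroid markers (such as Alas2, higher in PDR) and the neutrophil markers (Retnlg and Mmp8, higher in SKYD). The 4 endothelial and 4 smooth muscle markers each took under 0.003% of reads in both libraries. The immature T cell genes Rag1, Rag2 and Ptcra had no read in PDR, and the smooth muscle genes Myh11, Tagln and Cnn1 had none in either library. The 10 genes of dividing cells took 0.124% of reads in PDR and 0.0911% in SKYD. Of these, Pcna, Birc5 and Mki67 had the higher FPKM in SKYD and the other 7 in PDR. In such bulk libraries fewer cells of a type and less RNA per cell cannot be told apart, and the part of any of these cell types in the ribosomal protein differences was not tested.

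Ribosomal protein genes were among the most abundant transcripts of both libraries. The median member had 280.2 FPKM in PDR and 252 in SKYD, against 6.10 and 5.92 for all tested genes. In each library 65 of the 83 members had over 100 FPKM, and 53 members in PDR and 51 in SKYD were among the 500 most abundant genes. The highest mean level was that of Rps3a1, a small subunit protein, with 1666 FPKM in PDR and 1555 in SKYD. It ranked 49th of all genes in PDR and 47th in SKYD. Rps14, whose loss of 1 copy underlies the anaemia of the human 5q deletion, had 1319 and 1490 FPKM. Rpl32 of the large subunit followed with 1481 and 1272 FPKM. Rpl41, the smallest ribosomal protein, had 1209 and 1194 FPKM. Rplp1, an acidic protein of the stalk, had 1129 and 1071 FPKM. These 5 genes carried 13.5% of the reads on members in PDR and 14.4% in SKYD. The order of the members was nearly the same in both libraries (Spearman 0.986 over 80 genes, which share library and gene length), and no member moved by more than 12 places.

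**Figure D1:**
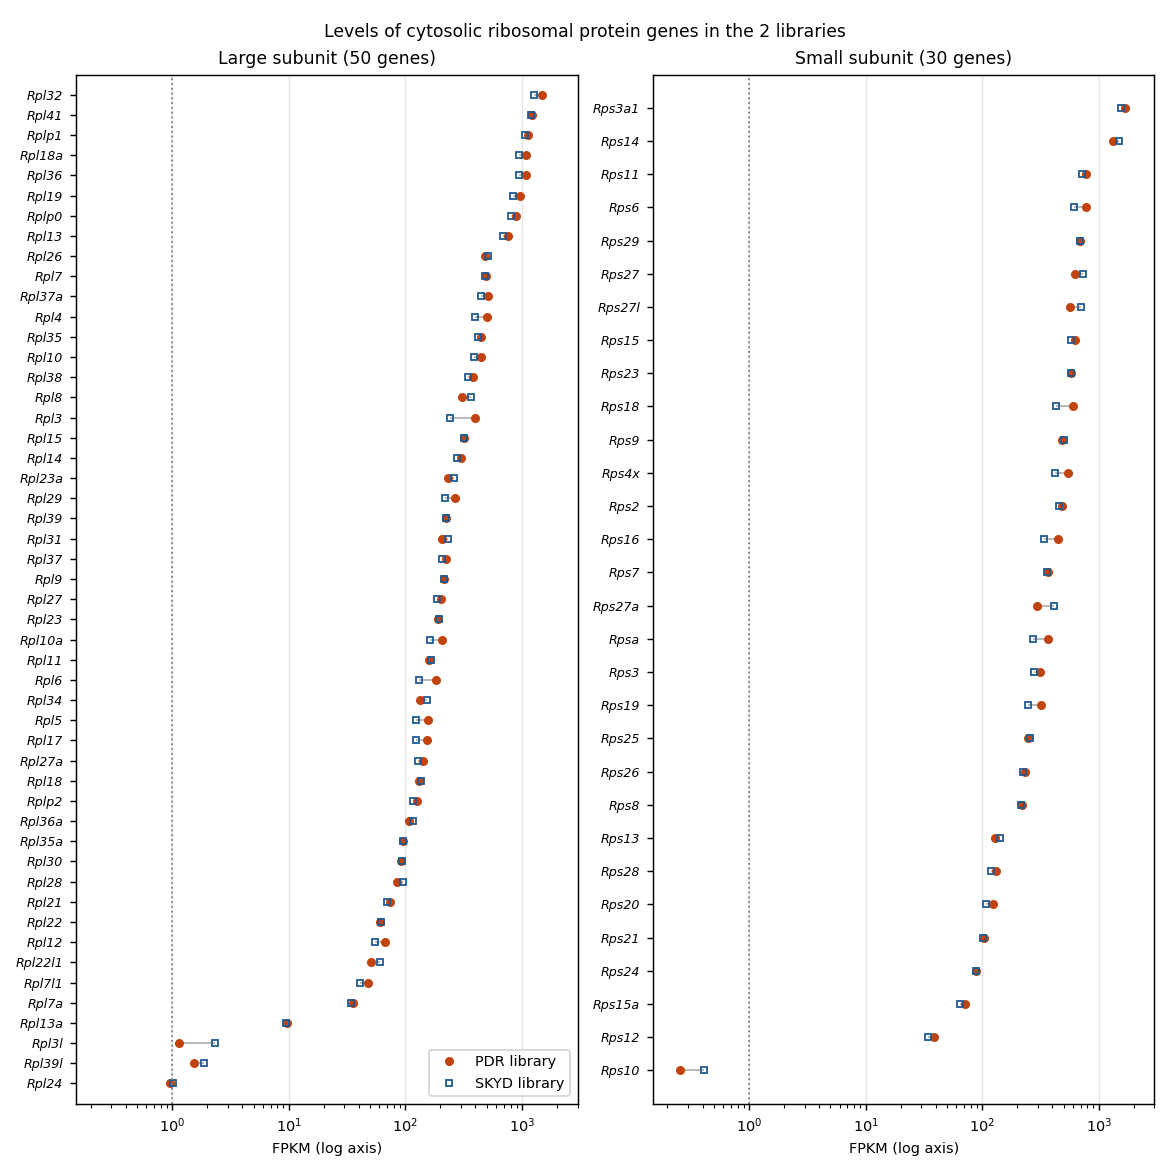
FPKM (log axis) of 80 of the 82 ribosomal protein genes with reads (those not reported here are left out), large subunit on the left and small subunit on the right, with 1 point for the PDR library and 1 square for the SKYD library. Most genes lie over 100 FPKM in both libraries with the points close together, while Rpl13a, Rpl3l, Rpl39l, Rpl24 and Rps10 lie under 10; the dotted line marks 1 FPKM.

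The members as a group took a slightly larger part of the PDR library. Their reads summed to 1192750 in PDR and 1170797 in SKYD, which is 5.17% (95% interval 5.16 to 5.18) and 4.60% (4.60 to 4.61) of the reads on genes. The ratio of these shares was 1.122 (1.119 to 1.125). Of the 80 tested members, 54 (67.5%) had the higher level in PDR and 26 in SKYD, against 49.6% of all tested genes higher in PDR. The median difference was 0.08 for the members and −0.0035 for all tested genes. The middle 50% of the members lay between −0.03 and 0.20, a narrower range than the −0.36 to 0.35 of all tested genes. No member passed 2-fold in either direction on the log2(FPKM + 1) scale, on which all such counts were made, while 7.38% of all tested genes passed it towards PDR and 6.91% towards SKYD. A smaller step of 25% was passed by 12 members towards PDR and by 2 towards SKYD, and by 26.2% and 27.0% of all tested genes. As deposited and with this filter, the share of members was thus under the background in both directions. Some other settings put the share towards PDR above it. Relative to other genes in the same range of coding length, 33.8% of members and 26.2% of tested genes were past 25% towards PDR. Relative to such genes of at least 30 FPKM the shares were 41.2% and 26.9%. With no filter on FPKM they were 14.5% and 7.11%, but 44133 of the 54532 genes then averaged under 1 FPKM. Genes without reads cannot pass 25%, so this last setting is no comparison with expressed genes. The large subunit had a median difference of 0.09 over 49 genes and the small subunit 0.07 over 31 genes, with SDs of 0.22 and 0.23 across genes.

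**Figure D2:**
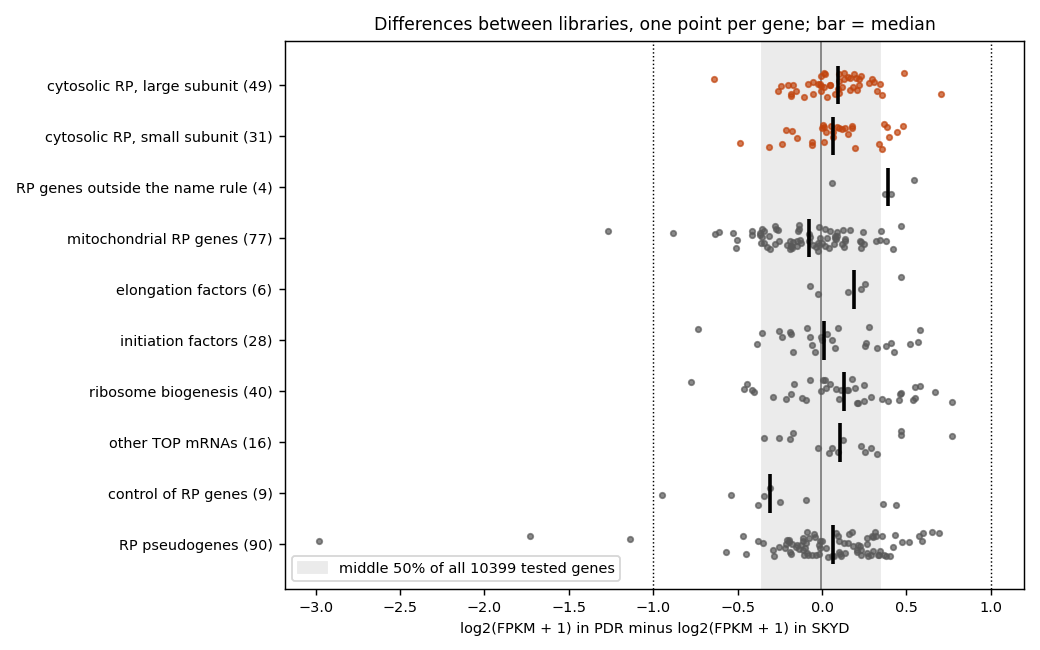
Difference between the PDR and SKYD libraries on the log2(FPKM + 1) scale, 1 point per tested gene and 1 row per list, with the number of genes in brackets and a bar at the median. The grey band is the middle 50% of all tested genes (−0.36 to 0.35), the dotted lines mark 2-fold, and the ribosomal protein genes lie mostly inside the band with medians of 0.09 and 0.07.

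In the large subunit the member furthest to the PDR side was Rpl3, which lies at the catalytic centre of the ribosome. Rpl3 (ENSMUSG00000060036, chr15:80077791-80091868) had 399 FPKM in PDR and 244 in SKYD, from 29738 and 19370 reads. This is a difference of 0.71 and a fold of 1.63 (1.60 to 1.66). Rpl6, on the outer face of the large subunit, had 184 and 131 FPKM, a fold of 1.40 (1.37 to 1.44). Rpl5, a carrier of 5S ribosomal RNA, had 158 FPKM in PDR and 123 in SKYD. Rpl4, whose long loop lines the exit tunnel, had 504 and 397 FPKM. Rpl10a, beside the path of the leaving tRNA, had 205 and 163 FPKM. These 5 were the large subunit genes more than 25% higher in PDR. Rpl17 had 153 and 124 FPKM and Rpl29 had 268 and 218, just under 25%.

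On the SKYD side of the large subunit the differences were smaller among the abundant genes. Rpl8, which contacts the catalytic centre, had 308 FPKM in PDR and 366 in SKYD, a fold of 0.843 (0.821 to 0.866). Rpl34 had 134 and 153 FPKM, and Rpl28 had 84.8 and 96.4. Rpl31, at the mouth of the exit tunnel, had 206 and 233 FPKM. Rpl23a, also at the tunnel mouth, had 234 and 261 FPKM. Genes near equal levels included Rpl41 with a fold of 1.01 (0.997 to 1.03), Rpl30 with 0.996 (0.963 to 1.03) and Rpl9 with 1.01 (0.987 to 1.03). Rpl38, whose loss in mice alters the axial skeleton, had 384 FPKM in PDR and 342 in SKYD. Most large subunit genes thus differed by less than 25% in either direction.

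In the small subunit 7 genes were more than 25% higher in PDR. Rps18, in the head of the subunit, had 603 FPKM in PDR and 433 in SKYD, a difference of 0.48 and a fold of 1.39 (1.37 to 1.42). Rpsa, which is also known as the laminin receptor, had 370.3 and 272 FPKM, a fold of 1.36 (1.34 to 1.39). Rps16, near the channel of the messenger RNA, had 444 FPKM in PDR and 339 in SKYD, a fold of 1.31 (1.27 to 1.34). Rps19, the gene most often mutated in Diamond-Blackfan anaemia, had 317 FPKM in PDR and 246 in SKYD. Rps4x had 545 and 425 FPKM. Rps6, the substrate of the S6 kinases, had 775 and 612 FPKM, a fold of 1.27 (1.24 to 1.29). Rps3, at the entry of the messenger RNA channel, had 313 and 277 FPKM and stayed under 25%.

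The small subunit gene furthest to the SKYD side was Rps27a, which encodes ubiquitin fused to a ribosomal protein. Rps27a (ENSMUSG00000020460, chr11:29545846-29548109) had 292 FPKM in PDR and 410.4 in SKYD, from 13545 and 20226 reads. The level was 1.40 times higher in SKYD (1.37 to 1.43), and on the log2(FPKM + 1) scale it and the low-level paralog Rpl3l were the tested members more than 25% higher there. Rps27l and Rps27 came next on this side and are described with the paralogs. Rps14 had 1319 and 1490 FPKM, a fold of 0.885 (0.874 to 0.897). Rps29, Rps7 and Rps24 were at nearly equal levels, with folds of 0.999, 1.01 and 1.004.

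Proteins that work together on the ribosome were also compared. The stalk of the large subunit, which recruits the translation factors, is formed by Rplp0, Rplp1 and Rplp2. All 3 were slightly higher in PDR, with folds of 1.11 (1.10 to 1.13), 1.05 (1.03 to 1.08) and 1.07 (1.04 to 1.11). The Mdm2-binding proteins did not move together, since Rpl5 had a fold of 1.28 (1.249 to 1.311), Rpl11 had 0.964 (0.938 to 0.990) and Rpl23 had 0.984 (0.955 to 1.01). Rpl11 had 159 FPKM in PDR and 165 in SKYD, and Rpl23 had 193 and 196. Part of Rpl5 also lies opposite Fam69a, which covers 46.6% of the exon bases of its main transcript and had 41.1 FPKM in PDR and 17.5 in SKYD. Whether the counting used strand is not given in the sources used here, so the reads of Rpl5 and Fam69a cannot be told apart with certainty. The X chromosome carries 4 members. Rps4x and Rpl10 had folds of 1.28 (1.26 to 1.31) and 1.15 (1.13 to 1.17), Rpl39 had 0.996 (0.965 to 1.03) and Rpl36a had 0.928 (0.890 to 0.968). Of 18 genes of Diamond-Blackfan anaemia, 17 were tested, 9 were higher in PDR, 2 were more than 25% higher in PDR (Rps19 and Rpl5) and the median difference was 0.01. Of all tested genes 49.6% were higher in PDR and 26.2% were more than 25% higher there.

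Several ribosomal protein genes have a paralog, a second gene for a similar protein. The pairs Rps27 and Rps27l and Rpl39 and Rpl39l have short coding sequences of equal length, and these are shown because their differing bases decide whether a read can be assigned to 1 gene of the pair. The sequences come from the main (APPRIS principal) transcripts of GENCODE for GRCm38, start codon to stop codon, and capitals mark the bases that differ between the genes of a pair.
Rps27: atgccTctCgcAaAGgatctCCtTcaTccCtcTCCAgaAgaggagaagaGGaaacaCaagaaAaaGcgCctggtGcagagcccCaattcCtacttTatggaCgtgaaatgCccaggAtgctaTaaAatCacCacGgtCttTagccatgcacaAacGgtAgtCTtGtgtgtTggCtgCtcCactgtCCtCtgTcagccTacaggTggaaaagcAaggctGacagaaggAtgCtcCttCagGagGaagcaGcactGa
Rps27l: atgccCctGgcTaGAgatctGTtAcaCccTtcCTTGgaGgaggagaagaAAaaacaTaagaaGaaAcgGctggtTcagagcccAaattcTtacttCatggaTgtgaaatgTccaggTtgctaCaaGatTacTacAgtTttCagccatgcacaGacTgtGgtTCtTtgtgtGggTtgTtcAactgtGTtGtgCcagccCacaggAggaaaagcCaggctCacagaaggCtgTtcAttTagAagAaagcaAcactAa
Rpl39: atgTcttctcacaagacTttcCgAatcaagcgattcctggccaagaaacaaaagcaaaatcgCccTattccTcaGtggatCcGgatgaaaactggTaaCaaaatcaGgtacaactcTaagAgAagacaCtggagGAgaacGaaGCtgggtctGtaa
Rpl39l: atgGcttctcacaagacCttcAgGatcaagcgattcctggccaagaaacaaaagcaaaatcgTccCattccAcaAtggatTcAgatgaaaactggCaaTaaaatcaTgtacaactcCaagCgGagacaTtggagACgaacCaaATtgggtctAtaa
Rps27 (chr3:90212522-90213651, minus strand) and Rps27l (chr9:66946086-66949516, plus strand) differ at 61 of 255 bases, an identity of 76.1%. Rpl39 (chrX:37082520-37085402, minus strand) and Rpl39l (chr16:10170226-10174911, plus strand) differ at 23 of 156 bases, an identity of 85.3%.

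Of the 6 tested paralogs in the list, 5 had the higher level in SKYD, and of their 7 partners 3 did, a difference that was not tested. Relative to other genes in the same range of coding length, Rps27l (0.01) and Rpl39l (0.14) lay on the PDR side, as did Rpl7l1 (0.19), Rpl22l1 lay at −0.02, and Rpl3l stayed on the SKYD side at −0.68. Rps27l, a target gene of p53, had 562 FPKM in PDR and 699 in SKYD, and its partner Rps27 had 624 and 734. Both were lower in PDR, with folds of 0.804 (0.784 to 0.825) and 0.850 (0.832 to 0.868). Their levels were close with the deposited gene lengths, but per length of the main transcript Rps27 had 1885 FPKM in PDR and 2219 in SKYD and Rps27l had 919.7 and 1143. Rpl22l1 had 50.8 FPKM in PDR and 60.9 in SKYD, a fold of 0.833 (0.789 to 0.880), while its partner Rpl22 had 61.2 and 61.5. Per length of the main transcript Rpl22l1 had 183 and 219 FPKM against 376 and 378 for Rpl22. Rpl7l1 had 47.7 and 40.5 FPKM, a fold of 1.18 (1.12 to 1.23), far under Rpl7 with 492 and 482. Rpl3l, known from heart and skeletal muscle, had 44 reads in PDR and 96 in SKYD, or 1.14 and 2.34 FPKM. Its level was 2.05 times higher in SKYD (1.42 to 3.0), and the difference of −0.64 on the log2(FPKM + 1) scale understates this because the gene is so low. The partner Rpl3 lay on the opposite side at 399 and 244 FPKM. Rpl39l, known from the testis, had 30 reads in PDR and 39 in SKYD, too few to show a difference (fold 0.819, 0.491 to 1.35). Rpl10l, a retrogene of Rpl10 known from the testis, had no read in either library, which allows up to 3 reads in each. Rpl10 had 446 and 387 FPKM. Over these 6 paralogs, a list that adds the pseudogene-annotated Rps4l to the 5 members, the median difference was −0.29, and over their 7 partners it was 0.03.

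**Figure D3:**
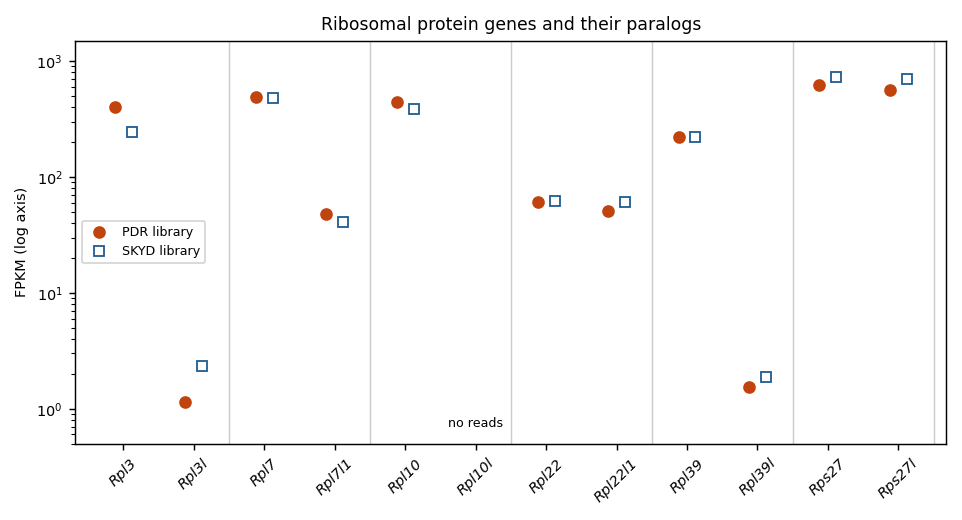
FPKM (log axis) of 6 ribosomal protein genes and their paralogs in the PDR library (points) and the SKYD library (squares). With the deposited gene lengths Rps27l and Rpl22l1 lie near the level of their partners, Rpl3l and Rpl39l lie between 1 and 3 FPKM, and Rpl10l had no reads.

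Apart from the paralogs, 3 members had levels far under the rest, and these share most of their exons with another annotated gene. Rps10 had 14 reads in PDR and 24 in SKYD (0.258 and 0.416 FPKM), and Rpl24 had 23 and 26 reads (0.951 and 1.01 FPKM). Rpl13a, which joins an inhibitor of translation in interferon-treated myeloid cells, had 484 and 497 reads (9.75 and 9.41 FPKM). On the same strand, the gene RPS10-NUDT3 covers 91.6% of the exon bases of the main Rps10 transcript, Gm28037 covers 71.5% of Rpl24 and Gm45713 covers 59.3% of Rpl13a. No other member had over 50% of its main transcript covered in this way, and the 3 covering genes had no read in either library. Reads that fall on several genes are assigned to none of them in the usual modes of HTSeq, but the mode used is not given in the sources used here. How far this overlap set the levels of the 3 genes was not tested. A processed pseudogene of Rps10, Rps10-ps2, had 2163 reads in PDR and 1875 in SKYD, far more than Rps10.

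The length used for FPKM also set part of the order of the members. The deposited gene length joins all annotated exons of a gene, and it was a median of 2.34 times the length of the main transcript, with 50 of the 83 members over 2 times. Rps15a had the largest ratio, at 6270 against 640 bases. Dividing the reads by the main transcript in place of the joined exons moved 36 members by at least 10 places in the order. Rps19 went from place 40 to place 6, and Rps15a from place 71 to place 41. Rps14, Rpl41 and Rpl32 then led the order, with Rps14 at 3058 FPKM in PDR and 3453 in SKYD. A change of length acts on both libraries alike and leaves the folds as they were.

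**Figure D4:**
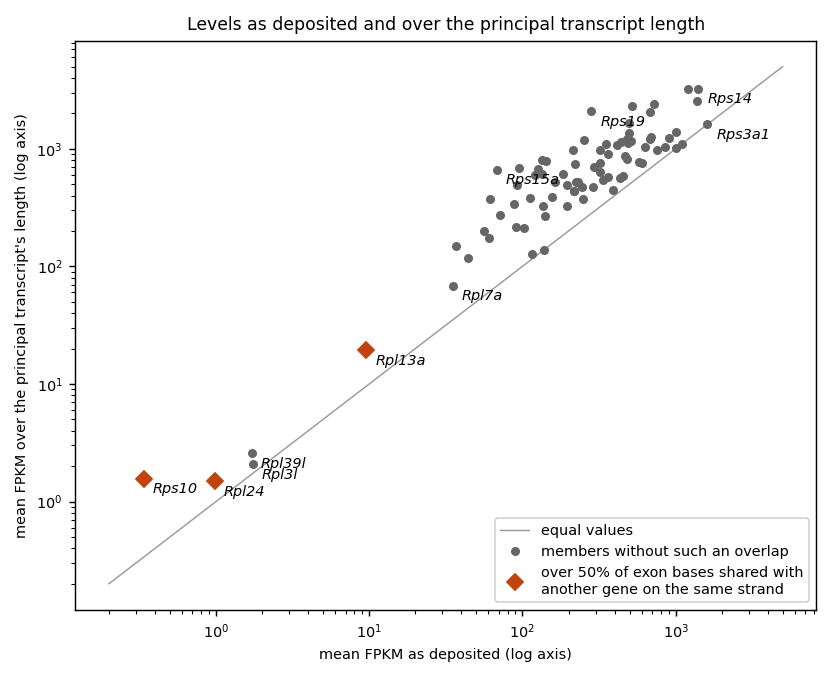
Mean FPKM of the 2 libraries as deposited (horizontal, log axis) against the same reads per length of the main transcript (vertical, log axis) for the 82 members with reads. Points over the line have a gene model longer than the main transcript, and the diamonds are Rps10, Rpl24 and Rpl13a, whose exons are shared with another gene on the same strand.

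Many members also resemble other genes, mainly their own processed pseudogenes. Of the 100-base windows of a main transcript, a median of 66.9% matched a transcript of another gene with at most 2 mismatches on either strand, and 54 members had at least 50% of their windows matched. Rpl7a shared windows with 97 other genes and had 35.7 FPKM in PDR and 34.5 in SKYD. Rpl3l and Rpl39l shared no window. The 28 members with few shared windows and no same-strand overlap had a median difference of 0.07, and 17 of them were higher in PDR. The 297 ribosomal protein pseudogenes in the data took 0.198% of reads in PDR and 0.178% in SKYD, a ratio of 1.11, and the 90 tested ones had a median difference of 0.07. Of these, Rps4l, Rpl31-ps3 and Rps13-ps4 were more than 2-fold higher in SKYD. Rps4l had 359 reads in PDR and 869 in SKYD, Rpl31-ps3 had 0 and 60, and Rps13-ps4 had 3 and 37.

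The difference between the libraries went with the length of the coding sequence. Among members with a coding sequence over 600 bases, 22 of 24 were higher in PDR, with a median difference of 0.17. The exceptions were Rpl8 and Rpl3l. The members of up to 300 bases, over 300 and up to 450, and over 450 and up to 600 bases had medians of 0.02, 0.04 and 0.01, and 6 of 11, 16 of 28 and 10 of 17 of them were higher in PDR. Across the 80 members the Spearman correlation of difference and coding length was 0.345, and across 77 mitochondrial ribosomal protein genes it was 0.419. The 8694 other tested protein-coding genes had a correlation of 0.184 and medians of −0.32, −0.24, −0.13 and 0.04 from the shortest to the longest of the same ranges. In the same order 25.1%, 31.2%, 37.1% and 53.3% of these other genes were higher in PDR, against 54.5%, 57.1%, 58.8% and 91.7% of the members. Most short protein-coding genes other than the members were thus lower in PDR, and in each range the median of the members was above that of the other genes. Relative to the other protein-coding genes of the same length range, the median difference of the members was 0.24, with 27 of 80 (33.8%) more than 25% higher in PDR and 2 (2.5%) in SKYD. On the same scale 26.2% of all tested genes were more than 25% higher in PDR and 26.1% in SKYD, together 52.3%, so the share of the members was above that of all tested genes towards PDR and below it in both directions together. The difference in shares was not tested. These correlations are across genes of the same pair of libraries, and the cause of the relation to length was not tested.

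**Figure D5:**
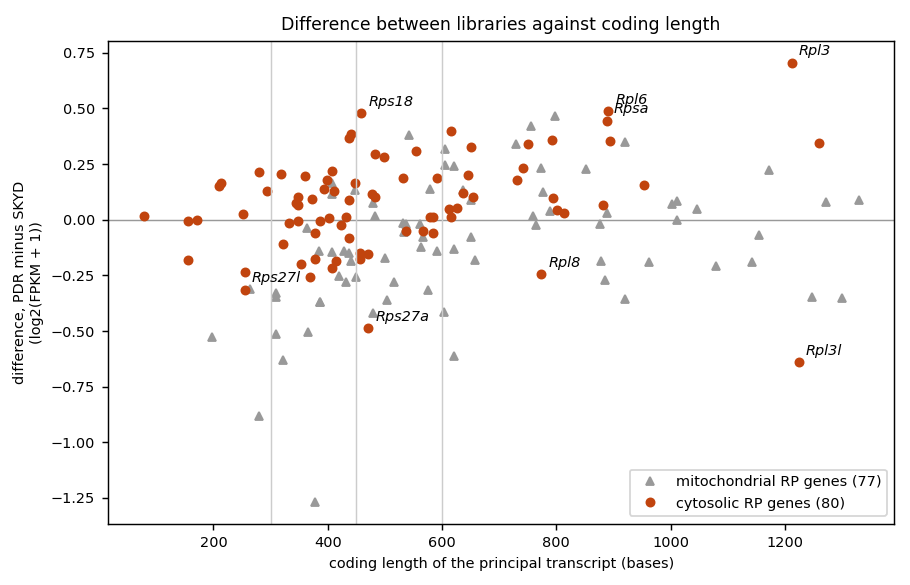
Difference between the PDR and SKYD libraries (log2(FPKM + 1)) against the coding length of the main transcript in bases, for 80 cytosolic and 77 mitochondrial ribosomal protein genes; the vertical lines mark the length ranges. Nearly all cytosolic members over 600 bases lie above 0, while the short mitochondrial ones lie mostly below it.

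Other genes of the translation machinery were compared with the members. Of all tested genes 49.6% were higher in PDR, the share to set beside the counts of this and the next paragraph. Of the 77 tested mitochondrial ribosomal protein genes, which serve the separate ribosome of the mitochondrion, 28 were higher in PDR, with a median difference of −0.08. This median turned to 0.05 when both libraries were scaled to the reads on protein-coding genes, a scaling that brought the median of all tested genes to 0.10. Mrps6 was the 1 gene among them past 2-fold, at 10.8 FPKM in PDR and 27.3 in SKYD. Mrpl54, Mrps21 and Mrpl20, the most abundant of them, had differences of 0.17, −0.31 and −0.26. The 4 genes that encode ribosomal proteins under other names were all higher in PDR. Rack1, a scaffold on the small subunit, had 145 FPKM in PDR and 109 in SKYD, and Fau had 460.0 and 442.

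The elongation factors, which move the ribosome along the messenger RNA, had a median difference of 0.19 over 6 genes, with 4 higher in PDR. Eef1a1, which delivers tRNAs, had 1296 FPKM in PDR and 936 in SKYD, Eif5a had 448 and 470.1 and Eef2 had 125 and 104. The 28 initiation factors, which place the ribosome on the start codon, had a median of 0.01. Of these, 15 (53.6%) were higher in PDR, near the 49.6% of all tested genes. Eif1, Eif3h and Eif3m, the most abundant of these, had differences of −0.73, 0.32 and −0.09. The 16 other TOP mRNAs had a median of 0.11, 11 of them higher in PDR, and 4 of the 6 elongation factors belong to this list. Tpt1 had 483 and 614 FPKM and Btf3 had 334 and 376. Among 40 tested genes of ribosome biogenesis, 27 had the higher level in PDR, and the median was 0.13. Npm1 and Nhp2 had differences of 0.47 and 0.46, while Eif6, which keeps the subunits apart, had −0.40 and fibrillarin (Fbl) had −0.77. Of 9 tested genes that control ribosomal protein synthesis 7 were higher in SKYD, with a median of −0.31. Eif4ebp1, an inhibitor of translation that mTOR switches off, had 51.2 FPKM in PDR and 99.7 in SKYD. Maf1, a repressor of RNA polymerase III, had 69.0 and 90.2 FPKM, and Trp53 had 17.5 and 21.9. Apart from Mrps6, none of the lists in this and the preceding paragraph held a tested gene past 2-fold.

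The start sites of the members were read in the RefSeq promoter table (GRCm38.p6), which held 75 start sites for 63 of the 83 members. A run of at least 5 C or T bases over the start base itself was present at 20 of the 75 start sites (26.7%), against 10.1% of all 32851 start sites in the table. The letters CTTTCC lay between 20 bases before and 50 after the start on the sense strand at 25.3% of member start sites and 3.24% of all. On either strand of the window from 250 bases before to 50 after the start, GGAAGT, the core bound by ETS and GABP factors, was present at 44.0% of member start sites and 23.8% of all, and TCTCGCGA at 16.0% and 0.995%. TATAAA lay between 50 bases before and 10 after the start at 2.67% of member start sites and 2.82% of all. These are matches of letters and no measure of binding, and several start sites can belong to 1 gene. For 4 members that were more than 25% higher in PDR and 4 that lay on the SKYD side, 30 bases around the longest run of C and T between 20 bases before and 50 after the start are shown, with the run in capitals, to let the starts of both sides be compared.
Rpl6: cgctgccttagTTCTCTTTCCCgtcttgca
Rps18: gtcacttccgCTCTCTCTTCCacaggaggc
Rpsa: tccggccgcccgTCCTTTCgcgctacccgg
Rps6: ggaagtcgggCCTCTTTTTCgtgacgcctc
Rps27l: actcctctccaCTCCTCCCCgccgcctcta
Rpl22l1: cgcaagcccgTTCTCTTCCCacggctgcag
Rps27: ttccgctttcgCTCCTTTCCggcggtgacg
Rpl28: gcctctcgtgTCTCTCTTTCCgtctccggc
Their positions are chr5:121204521-121204550 (plus strand), chr17:33955648-33955677 (minus), chr9:120127774-120127803 (plus), chr4:86857349-86857378 (minus), chr9:66946063-66946092 (plus), chr3:28805499-28805528 (plus), chr3:90213632-90213661 (minus) and chr7:4792952-4792981 (plus) in the same order. The run was 11 bases long in Rpl6, Rps18 and Rpl28, 10 in Rps6 and Rpl22l1, 9 in Rps27 and Rps27l and 7 in Rpsa. It lay over the start base in Rps18, Rps6, Rps27 and Rpl28. With the start base counted as 1, it began at base 2 in Rpl22l1, 21 in Rpsa and 32 in Rpl6, and in Rps27l it ended 4 bases before the start. The longest run was shown wherever it lay and was not tested as a TOP motif. These 8 start sites are examples picked by no fixed rule. Over the start sites read for the 12 tested members highest and the 12 lowest in difference, the longest run went from 5 bases (Rps16) to 15 (Rpl4) towards PDR, and from 5 at the second start site of Rps27l to 20 at the second of Rpl34 towards SKYD, with none at the second start site of Rpl3l.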

How the data were processed

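RNA was sequenced in 1 library per group, each from the pooled cells of 5 mice. The submitters' processing notes name Bowtie2 2.0.6, TopHat2 2.0.9 and HTSeq 0.6.1, and the authors deposited FPKM for 54532 genes with gene length, position and biotype. The notes name the build mm9, but 98.3% of the 54409 genes shared with GENCODE vM21 have the same start and end as in GRCm38, and GRCm38 positions are given here. FPKM times gene length, divided by the smallest step, gave whole reads (tolerance 0.05) for 100% of the 17738 genes above 0 in PDR and the 20499 above 0 in SKYD. The sizes behind FPKM were 23487992 and 24993633, and how the authors set them was not determined. The median difference of all tested genes depends on these sizes, at −0.0035 as deposited and 0.04 after rescaling by the recovered reads on genes. A count of 0 allows up to 3 reads, or 1.3e-05% of reads in PDR and 1.18e-05% in SKYD.

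Differences were log2(FPKM + 1) for genes whose FPKM averaged 1 or more, counted past 2-fold and past 25%. Intervals are exact 95% (Clopper-Pearson). No count model was fitted, since each group has 1 library. The members and all lists were chosen with earlier results of these data known. The named genes were the 5 members with the highest level, the 5 with the largest difference each way, all paralogs, partners, stalk, 5S particle and X-linked members, members without reads, 6 chosen members (Rps6, Rps19, Rps3, Rpl13a, Rpl38, Rpl41), and in each other list the 3 most abundant genes and those past 2-fold; any other gene was chosen with its values known. A few single genes are not reported here, and they stay in the counts and medians. The principal transcript was the best by APPRIS rank, then CCDS, then coding length. Alternatives were other pseudocounts, filters, scalings, centrings and sets of members; the comparison by coding length was chosen after seeing the data. The steps were tested on simulated data. Software was pandas 2.3.3 and numpy 2.4.6 under Python 3.11.15, scipy 1.17.1 for intervals and matplotlib 3.10.9 for plots.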

Additional observations from a re-analysis of the deposited data

How the results depend on the processing

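Each group has 1 library, so no alternative tests the spread between mice, and changes of scale move all genes together. The median difference of the members was above 0 under each of the 13 settings tried, at 0.066 with no filter on FPKM, 0.091 with a mean FPKM of at least 5, 0.094 after rescaling to TPM, 0.13 after rescaling by the recovered reads on genes, 0.21 by the reads on protein-coding genes, 0.089 after centring on a trimmed mean, 0.071 for the members with little shared sequence and 0.093 without the paralogs. After rescaling to TPM, by the recovered reads on genes and by protein-coding reads, 58, 60 and 66 of the 80 members were higher in PDR. All tested genes moved too, with 5254, 5512 and 6012 of 10399 then higher in PDR, against 5158 as deposited. The members above the median of all tested genes were 55, 58 and 59, against 55 as deposited. Relative to other genes of the same coding length the median difference of the members was 0.24. Relative to those of at least 30 FPKM it was 0.29, and both comparisons were chosen after seeing the data. The members more than 25% higher in PDR were then 27 and 33, and they were 20 after rescaling by protein-coding reads and 3 among the 28 members with little shared sequence. Of all tested genes 26.2%, 26.9% and 33% were more than 25% higher in PDR by the length comparisons and by the protein-coding rescaling, and 52.3%, 52.4% and 54.7% were past 25% in either direction. Past 25% towards SKYD there was 1 member among those with little shared sequence, without the paralogs and with a mean FPKM of at least 5. With a pseudocount of 0.01, 1 member (Rpl3l) passed 2-fold in SKYD. The ratio of the shares of reads was 1.18 over protein-coding reads, 1.18 without immunoglobulin and T cell receptor genes, 1.12 without the mitochondrial genome and 1.13 without Rps14. The causes were not tested. Of 414 recomputed differences of 34 named members, 308 stayed within their counting interval, 106 moved beyond it and none of those past 25% changed direction, while Rpl11, Rpl22, Rpl23, Rpl36a, Rpl39, Rpl39l, Rpl7, Rps27, Rpl22l1 and Rps27l, all under 25% as deposited, changed sign under some scaling or length comparison. No paired analysis was possible because each group has 1 library. Members with under 100 reads, such as Rpl3l, Rpl39l, Rpl24 and Rps10, have wide counting intervals.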
